A study of Mus musculus with 8 samples.

Results

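Cytosolic DNA and Z-nucleic acid sensing is represented here by 7 genes: the nucleic acid sensors Zbp1, Ifi203, Ifi204 and Mb21d1 (cGAS), the adaptor Tmem173 (STING), and the enzymes Trex1 and Samhd1. The members were chosen by symbol, and all 7 were found among the 18088 genes of the count table and were among the 17972 genes tested. Poly(A) RNA was sequenced from wild-type differentiated 3T3-L1 adipocytes, a murine line that forms lipid-laden, adipocyte-like cells when induced. The 4 siErk3 libraries came from cells given siRNA against Erk3 (gene Mapk6), an atypical MAP kinase, and the 4 siNTC libraries from cells given a nontargeting siRNA. Cells of both groups were detached, transfected with the same lipid reagent at 1.25 nM siRNA per square centimeter on Matrigel-coated plates and used 48 h later, with no untransfected group. The sources used here do not say whether the replicates were separate cultures, so p-values reflect no more than the variation among these libraries.

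Double-stranded DNA in the cytosol is bound by cGAS, which makes the messenger cGAMP. cGAMP binds STING at the endoplasmic reticulum, and STING then recruits the kinase TBK1, which phosphorylates the transcription factor IRF3 and so switches on type I interferon genes. IFI203 and IFI204, of the PYHIN family, pair a pyrin domain with a DNA-binding HIN domain, and IFI204 is a mouse relative of human IFI16. ZBP1 binds left-handed Z-DNA and Z-RNA and signals through RIPK3 to MLKL, the executioner of necroptosis. The exonuclease TREX1 degrades cytosolic DNA, and SAMHD1 hydrolyzes deoxynucleotides. Many of these genes are also induced by interferon.

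Of the 7 members, 6 were higher in siErk3 than in siNTC adipocytes and none was lower (edgeR's quasi-likelihood test, Benjamini-Hochberg adjusted p under 0.05), nor was any lower at an unadjusted p under 0.05 or with DESeq2. Across all genes tested, 24.9% were called higher and 23.8% lower, and 22.5% had every siErk3 library above every siNTC library, as the same 6 members did. Ranked by log2 fold change from the highest, Ifi203 was number 56, Zbp1 66, Ifi204 120, Trex1 276, Tmem173 307 and Samhd1 364 of the 17972 genes. Mb21d1 was not called, and its groups overlapped. The median log2 fold change of the 7 members was 2.35, against 0.000946 over all genes tested. The members were chosen with earlier results of these data known, so this contrast describes them and is not a test.

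Total counts lay between 9854522 and 9943572 per library. Mapk6, the target of the siRNA, was at 579 ± 18.1 CPM in siNTC and fell to 69.6 ± 4.80 CPM in siErk3 (SD over 4 libraries, log2 fold change -3.06). CPM denotes counts scaled to library size after TMM normalization, which corrects for library composition. The split of calls over all genes depended on that scaling, with 4470 higher and 4275 lower under TMM, 5849 and 3139 with library sizes alone, and 3556 and 5394 with upper-quartile factors. Relative to TMM, where the median gene lay at 0.000946, these moved the median to 0.0871 and -0.0690 on the log2 scale. All 8 adipocyte markers were measured and 7 of them were lower in siErk3, with summed levels of 24257 to 26938 CPM in siNTC and 15156 to 16203 CPM in siErk3. The other, Cd36, was called higher (log2 fold change 0.19), which held in 12 of 16 alternatives. The call of Pparg, 1 of the 7 lower markers, was the least firm and held in 10 of 16 alternatives. Of 5 preadipocyte markers 4 were measured. Pdgfra, Dlk1 and Thy1 were lower (log2 fold changes -0.58, -2.73 and -1.81), whereas Ly6a, which interferon also induces, was higher by 6.46 and carried the summed level from 76.5 to 83.2 CPM in siNTC to 310.1 to 339.7 CPM in siErk3. The endothelial marker Pecam1, the 1 measured of 5, was not called (log2 fold change 0.55). Several members are best known from macrophages. Of 10 macrophage and leukocyte markers, the 3 in the count table summed to 9.89 to 14.5 CPM in siNTC and 20.4 to 25.0 CPM in siErk3. Csf1r was not called (log2 fold change -0.08), while Cd68 and Cd14 rose (1.05 and 1.69). The defining markers Ptprc, Adgre1, Itgam, Lyz2, C1qa, C1qb and C1qc were not among the genes of the table. The part of these markers in the members' changes was not tested.

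Zbp1 (ENSMUSG00000027514) is at 173206612 to 173218923 of chromosome 2 (mm10, minus strand). The siNTC libraries held 31, 33, 36 and 34 counts of Zbp1, and the siErk3 libraries 2329, 2424, 2361 and 2289. All siErk3 libraries were far above all siNTC libraries, and within either group the libraries lay close together. The level was 3.49 ± 0.226 CPM in siNTC and 230 ± 6.42 CPM in siErk3 (SD over 4 libraries), a 65.7-fold increase. The log2 fold change was 6.04 (SE 0.0776, edgeR adjusted p = 2.01e-25), and no siNTC library reached a siErk3 library (two-sided exact permutation p = 0.0286, the lowest value possible with 4 against 4). In bulk RNA, a change in the share of cells that make a transcript and a change in the RNA per cell cannot be told apart. No stretch of 50 bases of Zbp1 transcripts occurred in transcripts of another gene of GENCODE M21.

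**Figure D1:**
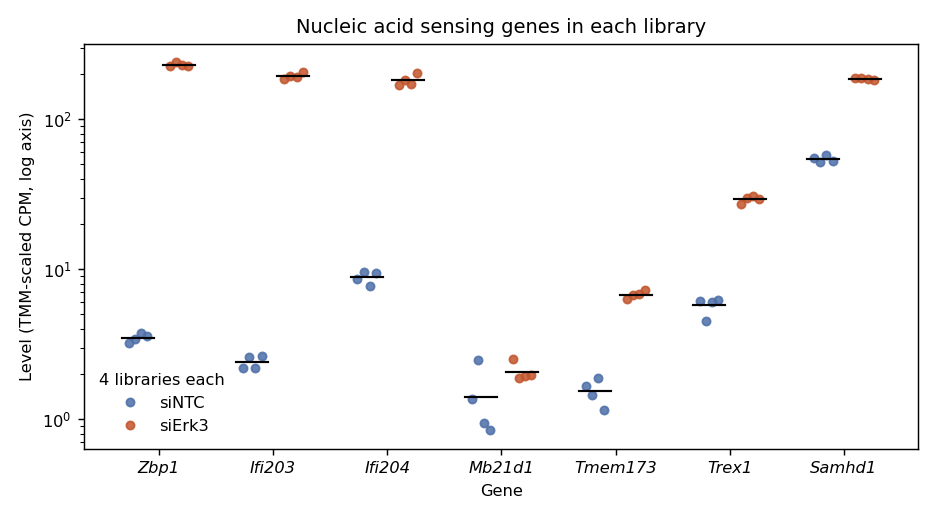
Level of each of the 7 genes in the 8 libraries, in TMM-scaled CPM on a log axis; points are libraries (blue siNTC, orange siErk3) and black bars are group means. The 6 genes other than Mb21d1 have all 4 siErk3 libraries above all 4 siNTC libraries, whereas Mb21d1 spans 0.842 to 2.48 CPM in siNTC and 1.88 to 2.51 CPM in siErk3.

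The ZBP1 pathway was covered by 7 other genes, all tested, of which 4 were higher, 1 was lower and 2 were not called, with a median log2 fold change 0.37. Mlkl, the pore-forming effector of necroptosis, was at 13.7, 16.6, 15.7 and 16.5 CPM in siNTC and at 107, 102, 105 and 102 CPM in siErk3. It rose 6.64-fold (log2 fold change 2.73, SE 0.0659, edgeR adjusted p = 2.06e-20). Adar, which edits double-stranded RNA and whose long isoform binds Z-RNA, was at 18.1, 18.1, 17.1 and 14.8 CPM in siNTC and between 141 and 142 CPM in every siErk3 library, an 8.30-fold rise (3.05 on the log2 scale). Ripk3, the kinase between ZBP1 and MLKL, was not called, with 5.94 ± 0.556 CPM in siNTC and 6.62 ± 1.21 CPM in siErk3 (SD over 4 libraries; edgeR adjusted p = 0.393). Changes in the remaining genes were small. Ripk1 and Casp8, which encode a scaffold kinase and an apoptotic protease, rose by 0.37 and 0.48 on the log2 scale, and Cflar, which encodes the caspase-8 regulator cFLIP, fell by 0.32. Fadd, the adaptor of caspase-8, was not called (log2 fold change 0.16, edgeR adjusted p = 0.276).

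Ifi203 (ENSMUSG00000039997) and Ifi204 (ENSMUSG00000073489) are at 173920407 to 173942672 and at 173747293 to 173766943 of chromosome 1 (mm10, minus strand). Ifi203 had 21, 25, 21 and 25 counts in siNTC and 1913, 1965, 1969 and 2093 in siErk3. It rose from 2.40 ± 0.241 to 194 ± 9.27 CPM (SD over 4 libraries), 80.6-fold, with a log2 fold change 6.33 (SE 0.0873, edgeR adjusted p = 5.95e-25), the highest of the 7 members. Ifi204 had 83, 92, 74 and 90 counts in siNTC and 1746, 1852, 1764 and 2045 in siErk3. It rose 20.5-fold, from 8.83 ± 0.840 to 181 ± 15.2 CPM (SD over 4 libraries), with a log2 fold change 4.36 (SE 0.0816, edgeR adjusted p = 1.31e-22). Neither gene had overlapping groups (two-sided exact permutation p = 0.0286 for each). The family is made of close copies, so reads can be divided between its members. Of the 50-base stretches in Ifi203 transcripts 12.4% also occurred in another gene, mostly the pseudogene Ifi203-ps (8.85%) and Mndal (3.34%), and for Ifi204 20.0% did, mostly in Ifi211 (14.8%) and Mndal (5.44%). How the authors' counting treated such reads is not given in the sources used here.

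The other PYHIN genes in the table moved the same way. All 9 were called higher (median log2 fold change 5.66), and the 3 others listed (Mnda, Ifi206 and Ifi209) were not among its genes. The table held only genes above 1 CPM in at least 4 libraries. Aim2, Ifi205, Ifi208, Ifi213 and Ifi214 averaged 0 to 0.546 CPM in siNTC. They were in the table only through their siErk3 libraries, so their higher calls were largely fixed in advance. Ifi202b had 8 counts (0.835 CPM) in siNTC replicate 3, so it too was in the table only through its siErk3 libraries. Its higher call is therefore not independent of that limit. Mndal rose from 6.02 ± 0.636 to 305 ± 18.4 CPM, Ifi207 from 4.69 ± 0.700 to 195 ± 5.39 CPM, Ifi202b from 1.59 ± 0.567 to 171 ± 20.0 CPM, and Ifi211 from 2.63 ± 0.903 to 69.1 ± 7.39 CPM (SD over 4 libraries). Aim2, the inflammasome sensor of cytosolic DNA, rose least within the family and stayed low, between 0.209 and 1.03 CPM in siNTC and between 3.60 and 4.35 CPM in siErk3 (log2 fold change 2.82, SE 0.291). Ifi208 had no count in any siNTC library and 327 over the siErk3 libraries, which is at least 102-fold higher when the siNTC group as a whole is given 3 counts, the limit that a count of 0 allows. With Ifi208 at that bound the family's median stayed at 5.66. Ifi205 had 1 count over the siNTC group and 286 over the siErk3 group, a ratio of 269 with a 95% interval of 47.8 to 10643 (exact binomial, counting error only). Aim2, Ifi208 and Ifi205 were picked for mention after their values were seen, as were Ifi213, Ifi214 and the pseudogenes named with the cluster.

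All 11 PYHIN genes tested, Ifi203 and Ifi204 included, lie within 681 kb of chromosome 1, from 173350879 to 174031810. Only 3 other tested genes lie between these ends, the unprocessed pseudogenes Ifi203-ps, Gm38050 and Gm18445, and all 3 were called higher. They averaged 0.417, 0.0261 and 0.0522 CPM in siNTC and were in the table only through their siErk3 libraries. Their higher calls were thus largely fixed in advance, and Ifi203-ps also shares sequence with Ifi203. Within 1000 kb on either side of the cluster 5 genes were tested, of which 1 was higher, 2 were lower and 2 were not called, with log2 fold changes from -0.78 to 1.25. For Ifi208 only a lower bound of 6.68 can be given. The other log2 fold changes within the cluster ranged from 2.82 for Aim2 to 7.50 for Ifi205, which lie at its opposite ends. There was no steady rise between them, with Gm38050 at 6.67, Ifi211 at 4.71 and Ifi203 at 6.33 in that order. The Ifi205 value rests on 1 siNTC count, and edgeR's estimate of 181-fold lies below the ratio of 269 taken from the summed counts.

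**Figure D2:**
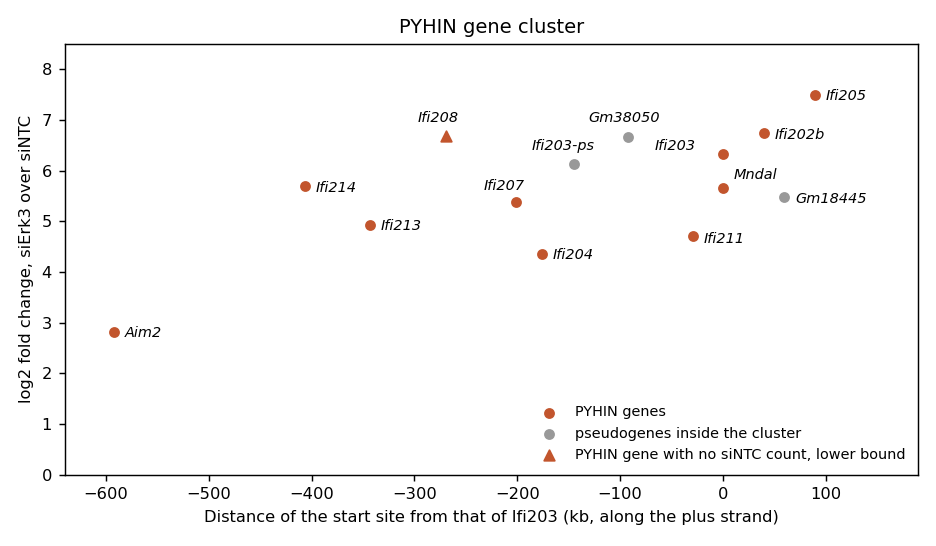
Log2 fold change (siErk3 over siNTC) of every tested gene between the ends of the PYHIN cluster, against the distance in kb of its start site from that of Ifi203. Start sites are the outermost annotated bases in GENCODE M21, which can differ from the RefSeq starts used for promoters. Mndal is placed at -0.181 kb, whereas the RefSeq window with its printed element spans 173880138 to 173880437. Orange points are PYHIN genes, grey points the 3 pseudogenes, and the triangle is Ifi208 at its lower bound of 6.68; all 14 genes lie above 0, with Aim2 lowest at 2.82. The pseudogenes and Aim2, Ifi202b, Ifi205, Ifi208, Ifi213 and Ifi214 were in the table only through their siErk3 libraries.

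Promoter windows of RefSeq (build GRCm38.p6, from 250 bases before to 50 after an annotated start) were searched on both strands for GAAANNGAAA, the core of the interferon-stimulated response element (ISRE) that binds IRF and ISGF3 factors, and for TTCNNNGAA, the gamma-activated site (GAS) that binds STAT dimers. Of the 7 members, Ifi203, Trex1, Samhd1 and Mb21d1 were in the window table, and Zbp1, Ifi204 and Tmem173 were not analysed for motifs. An ISRE core was found in Ifi203 alone and a GAS in Samhd1 alone, and neither was found in the windows of Trex1 and Mb21d1. Of all genes with such a window, 3.99% held an ISRE core and 9.55% a GAS. Of the 10 tested PYHIN genes with a window, 8 held an ISRE core, all but Aim2 and Ifi202b. These 30-base stretches, read along the gene's own strand with the motif in capitals, are shown because the same element recurs across the cluster, at -35 to -134 bases from the annotated start:
Ifi203 (chr1:173942508-173942537, minus strand): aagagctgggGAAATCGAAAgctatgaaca
Mndal (chr1:173880204-173880233, minus strand): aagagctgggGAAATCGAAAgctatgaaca
Ifi208 (chr1:173673597-173673626, plus strand): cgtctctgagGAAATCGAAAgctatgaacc
Ifi213 (chr1:173599326-173599355, minus strand): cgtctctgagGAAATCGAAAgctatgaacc
Ifi214 (chr1:173536017-173536046, minus strand): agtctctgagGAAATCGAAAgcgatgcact
Ifi207 (chr1:173741831-173741860, minus strand): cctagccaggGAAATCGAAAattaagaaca
Ifi211 (chr1:173913064-173913093, minus strand): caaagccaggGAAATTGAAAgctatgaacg
Ifi205 (chr1:174031870-174031899, minus strand): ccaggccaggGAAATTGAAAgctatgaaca

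The core was the same in 6 of these genes and differed in Ifi211 and Ifi205, which shared the other form. Ifi203 and Mndal had all 30 bases in common, as did Ifi208 and Ifi213, so these matches are copies of related sequence and are not independent of each other. The Ifi203 element lies at -35 bases from the start at 173942492 but downstream of a second annotated start at 173942672. Mndal and Ifi205 each held a further match on the opposite strand. The GAS of Samhd1 lies at -235 bases from its annotated start and is printed with the motif in capitals, since it is the only match of either kind in a member outside the PYHIN family:
Samhd1 (chr2:157135313-157135341, minus strand): acaccaccctTTCGGAGAAacacaagggc

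A letter match describes the window and does not show that a factor binds there. Beyond the PYHIN family, the ISRE core was found in the windows of Isg15, Cxcl10, Ripk1 and Cflar among the other pathway genes listed. The first pair rose steeply, Ripk1 rose by 0.37 and Cflar fell by 0.32 on the log2 scale, and Zbp1 partner genes with steep increases, Mlkl and Adar, held no ISRE core in their windows.

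Mb21d1, which encodes cGAS (ENSMUSG00000032344, minus strand of chromosome 9 of mm10, 78430526 to 78443237), was the 1 member with no call. It had 13, 24, 9 and 8 counts in siNTC and 26, 19, 20 and 20 in siErk3. In siNTC, replicates 3 and 4 were below the table's limit of 1 CPM (0.939 and 0.842 CPM). Mb21d1 was thus in the table only through its siErk3 libraries. The highest siNTC library, replicate 2, lay above 3 of the 4 siErk3 libraries, and the other 3 siNTC libraries lay below all of them. Levels were 1.40 ± 0.751 and 2.08 ± 0.293 CPM (SD over 4 libraries). The log2 fold change was 0.56 (SE 0.286, 95% interval from -0.0015 to 1.12, edgeR adjusted p = 0.109; two-sided exact permutation p = 0.143). The interval holds both no change and a 2-fold increase, with 54 counts over the siNTC libraries and 85 over the siErk3 libraries. It was built from the SE and a normal quantile. It is therefore narrower than edgeR's quasi-likelihood test implies (unadjusted p = 0.0613). Without siNTC replicate 2 the log2 fold change was 0.98 and the call was made (edgeR adjusted p = 0.00631). Over all alternatives that gave a value, the adjusted p lay between 0.00631 and 0.304. Some 4.68% of its 50-base stretches occurred in another gene, and the transcribed pseudogene Gm8093 overlaps 4.87% of its exon bases on the opposite strand, which the library kit does not tell apart.

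Tmem173, the gene of STING (ENSMUSG00000024349, minus strand of chromosome 18 of mm10, 35733679 to 35740554), was low in both groups, yet its libraries separated completely. It had 16, 14, 18 and 11 counts in siNTC and 65, 68, 70 and 73 in siErk3. The level rose from 1.54 ± 0.309 to 6.76 ± 0.386 CPM (SD over 4 libraries), 4.37-fold, with a log2 fold change 2.13 (SE 0.178, edgeR adjusted p = 6.96e-10; two-sided exact permutation p = 0.0286). No 50-base stretch of its transcripts occurred in another gene.

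Trex1 (ENSMUSG00000049734) is at 109057933 to 109059734 of chromosome 9 (mm10, minus strand). It had 59, 44, 58 and 59 counts in siNTC and 280, 301, 317 and 298 in siErk3. The level rose from 5.74 ± 0.797 to 29.3 ± 1.60 CPM (SD over 4 libraries), 5.10-fold, with a log2 fold change 2.35 (SE 0.101, edgeR adjusted p = 2.70e-15; two-sided exact permutation p = 0.0286). All 1147 exon bases of Trex1 lie within annotated exons of Atrip on the same strand, and 95.8% of its 50-base stretches were shared with another gene, so its count depends on how shared reads were assigned, which the sources used here do not give. Atrip itself, whose product recruits the checkpoint kinase ATR to DNA, had a mean level of 11.4 CPM in siNTC adipocytes and of 12.8 CPM after Erk3 knockdown (log2 fold change 0.17, edgeR adjusted p = 0.181).

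Samhd1 (ENSMUSG00000027639, minus strand of chromosome 2 of mm10, 157097533 to 157135265) led the members in siNTC both by count and per length, with 528, 501, 549 and 502 counts, and had 1937, 1898, 1917 and 1833 in siErk3. The level rose from 54.2 ± 2.46 to 186 ± 2.89 CPM (SD over 4 libraries). This 3.42-fold increase was the smallest of the 6 called (log2 fold change 1.78, SE 0.0535, edgeR adjusted p = 2.08e-18; two-sided exact permutation p = 0.0286). Only 1.76% of its 50-base stretches were shared with another gene.

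The members changed by different amounts. In each library the log2 ratio of 2 members' counts was taken, a measure on which library scaling has no bearing, and the groups were compared for all 21 pairs. In 20 pairs the ratios of the groups did not overlap (two-sided exact permutation p = 0.0286, the lowest value possible with so few libraries). Adjusted over the 21 pairs this p was 0.030, a value that follows from the number of pairs without overlap. The pairs share members and are not independent of each other. How often pairs of other genes separate in this way was not tested, so the count does not set the members apart. Ifi203 gained on Ifi204 by 1.96 log2 units, although both belong to 1 family and 1 cluster, and Zbp1 gained on Ifi204 by 1.67. Between the steepest members the difference was small but still separated the groups, with Ifi203 gaining on Zbp1 by 0.29. Zbp1 gained 5.36 on Mb21d1, 3.90 on Tmem173 and 3.67 on Trex1. Trex1 gained 0.57 and Tmem173 0.34 on Samhd1. Mb21d1 lost ground against every other member, by 1.11 to Samhd1, the nearest. The exception among the pairs was Trex1 against Tmem173, whose ratios overlapped (difference of 0.23 with a pooled SD of 0.249, two-sided exact permutation p = 0.229).

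Levels of different genes were compared per kilobase of merged exons. In siNTC the order was Samhd1 at 5.92 ± 0.269 CPM per kb, Trex1 at 5.0 ± 0.695, Ifi204 at 2.48 ± 0.236, Zbp1 at 0.990 ± 0.0642, Tmem173 at 0.561 ± 0.113, Ifi203 at 0.358 ± 0.0360 and Mb21d1 at 0.340 ± 0.182 (CPM per kb, SD, n = 4). Each gene's libraries lay above those of the next, except that Ifi203 and Mb21d1 overlapped. In siErk3 the order became Zbp1 at 65.2 ± 1.82, Ifi204 at 50.9 ± 4.27, Ifi203 at 29.0 ± 1.38, Trex1 at 25.5 ± 1.39, Samhd1 at 20.3 ± 0.316, Tmem173 at 2.46 ± 0.141 and Mb21d1 at 0.504 ± 0.0709 CPM per kb (SD, n = 4), with no overlap between neighbours. Thus the enzymes led in siNTC and the sensors Zbp1, Ifi204 and Ifi203 led in siErk3, while Mb21d1 was last in both. The place of Trex1 in either order is uncertain, since it depends on how reads shared with Atrip were assigned. The order in siErk3 rested in part on the length used. Per kilobase of the longest transcript, Ifi204 led with 79.0, ahead of Zbp1 at 69.2, Ifi203 at 51.8, Samhd1 at 47.3 and Trex1 at 27.0 CPM per kb. In siNTC the order was the same with either length.

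**Figure D3:**
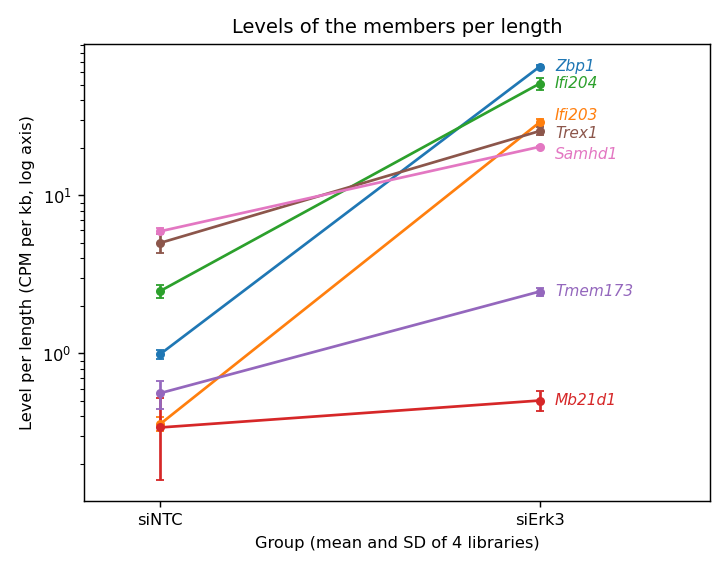
Level per length of the 7 genes in CPM per kilobase of merged exons, on a log axis; points are means of 4 libraries and bars their SD, joined for each gene. Zbp1 passes from the middle of the order with 0.990 to its top with 65.2, and Mb21d1 stays last with 0.340 and 0.504 CPM per kb.

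For each member, the genes with the most similar profile over the 8 libraries were found by Euclidean distance between log2 CPM values centred on the siNTC mean. With only 2 groups, this distance mostly measures how alike the group differences are, and it has no bearing on function. The nearest to Zbp1 were Gbp3 (distance 0.311), Herc6 and Ifi203 itself. Ifi203 lay nearest to Bst2 (0.586), Herc6 and Ly6a, and Ifi204 to the RNA sensor gene Ddx58 (0.548), Ifih1 and Gbp7. Samhd1 had the closest neighbour of all members, Tapbp (0.0438), a peptide-loading factor of MHC class I that rose by 1.76 on the log2 scale, followed by Psmb10 and Parp10. Trex1 lay nearest to H2-Q1 (0.136), Gm10271 and Patl2, Tmem173 to E230016K23Rik (0.344), Lrrc75b and Hmox1, and Mb21d1 to Gm11536 (0.534), Best3 and Timeless.

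Of the 99 other pathway genes listed, 85 were tested, of which 42 were higher, 14 were lower and 29 were not called, with a median log2 fold change 0.17. Over all genes tested, 24.9% were higher and 23.8% lower, with a median of 0.000946. The 42 include PYHIN, inflammasome and output genes that were in the table only through their siErk3 libraries.

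**Figure D4:**
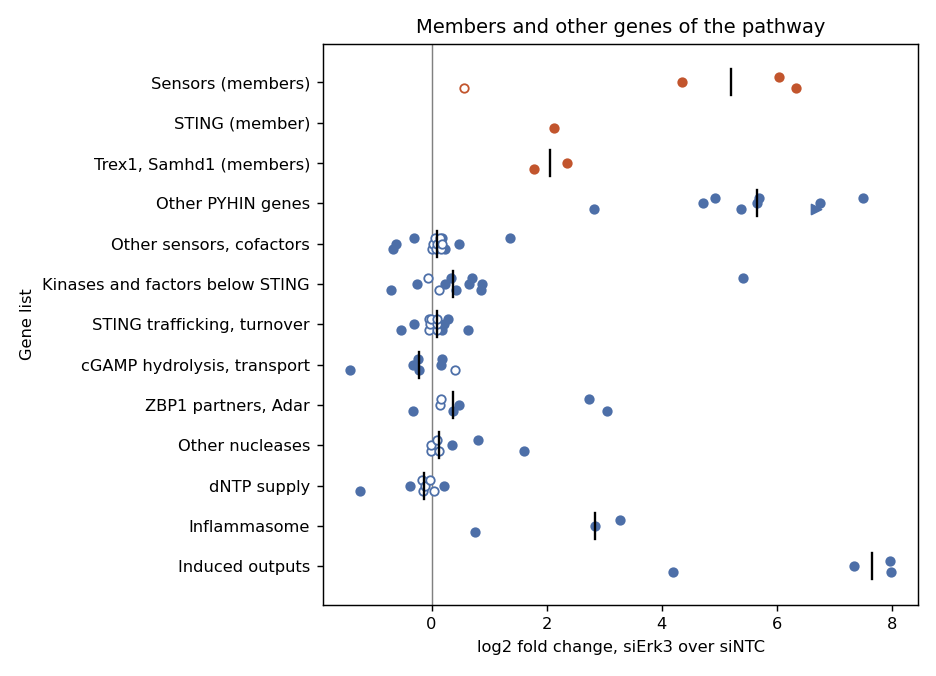
Log2 fold change (siErk3 over siNTC) of the 7 members (orange) and of the 85 other pathway genes tested (blue), by list; filled points were called at an adjusted p under 0.05, open points were not, the triangle is Ifi208 at its lower bound, and black bars are list medians. The PYHIN genes (median 5.66) and induced outputs (median 7.65) lie far to the right, and the medians of the cofactor, trafficking, cGAMP, nuclease and dNTP lists lie between -0.21 and 0.12. Several PYHIN, inflammasome and output genes were in the table only through their siErk3 libraries.

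Among the kinases and transcription factors below STING, 8 of 12 were higher, 2 were lower and 2 were not called (median 0.38). Irf7, which amplifies interferon transcription, was at 6.56, 6.92, 6.78 and 7.89 CPM in siNTC and at 291, 288, 314 and 310 CPM in siErk3, a 42.7-fold increase (log2 fold change 5.41, SE 0.0736, edgeR adjusted p = 5.63e-25). Irf3, the direct substrate of the STING-TBK1 complex, had 29.6 ± 1.55 CPM in siNTC and 24.8 ± 1.34 CPM in siErk3 (SD over 4 libraries; log2 fold change -0.25, edgeR adjusted p = 0.00541), and it was no longer called with library sizes alone (log2 fold change -0.17). Tbk1, chosen for mention after its value was seen, rose from 36.8 to 67.6 CPM (log2 fold change 0.88). Ikbkg, the NEMO subunit of the IKK complex, rose by 0.33, the kinase gene Chuk by 0.42 and the NF-κB subunit gene Rela by 0.23. Map3k7, the gene of TAK1, fell from 45.5 ± 2.15 to 28.0 ± 0.722 CPM (SD over 4 libraries; log2 fold change -0.70).

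Of the genes that move, modify or degrade STING, 4 of 13 tested were higher, 2 were lower and 7 were not called (median 0.0905). The ubiquitin ligase gene Trim56 rose by 0.63 and the palmitoyltransferase gene Zdhhc3 by 0.29 on the log2 scale. Rnf5, a ligase that marks STING for degradation, fell by 0.53, and Insig1, better known from sterol sensing, fell by 0.31. Of the genes that hydrolyze or transport cGAMP, 2 of 7 tested were higher, 4 were lower and 1 was not called (median -0.21). Enpp1, the main extracellular cGAMP hydrolase, was at 6.87, 7.23, 6.16 and 7.57 CPM in siNTC and at 2.42, 2.76, 2.14 and 3.07 CPM in siErk3, without overlap. It fell 2.67-fold (log2 fold change -1.42, SE 0.159, edgeR adjusted p = 8.72e-08). The other changes on this list were at most 0.42 in size. The importer gene Slc19a1 had a log2 fold change -0.21 and the exporter gene Abcc1 one of 0.19, and their calls were lost with library sizes alone (-0.12) and with upper-quartile factors (0.12), respectively.

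Of the other proposed DNA sensors and cofactors, 4 of 15 tested were higher, 3 were lower and 8 were not called (median 0.0954). Unc93b1, which brings endosomal nucleic acid receptors to their compartment, rose 2.57-fold, from 29.1 ± 2.51 to 74.8 ± 2.78 CPM (SD over 4 libraries). Prkdc and Rad50, DNA repair genes with a proposed part in sensing, fell by 0.66 and 0.62, and Hnrnpa2b1 fell by 0.30. Hmgb1 and Dhx9 were not called, with log2 fold changes of 0.02 and 0.01. The endosomal DNA receptor gene Tlr9 was not among the genes of the table.

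Beside Trex1, 3 of 7 other nuclease genes tested were higher and 4 were not called (median 0.12). Pnpt1, the mitochondrial RNA-degrading phosphorylase, rose 3.03-fold, from 18.9 ± 2.71 to 57.1 ± 1.97 CPM (SD over 4 libraries). Rnaseh2b rose by 0.81 and the lysosomal nuclease gene Dnase2a by 0.35 on the log2 scale, while Rnaseh2a, the catalytic subunit gene of the same enzyme as Rnaseh2b, was not called (log2 fold change -0.00, edgeR adjusted p = 0.965). Of the 8 genes that supply the deoxynucleotides on which SAMHD1 acts, 1 was higher, 2 were lower and 5 were not called (median -0.14). Rrm2, the replicative subunit gene of ribonucleotide reductase, fell from 2.97 ± 0.847 to 1.25 ± 0.206 CPM (SD over 4 libraries; log2 fold change -1.24, SE 0.251, edgeR adjusted p = 0.000236). Dck fell by 0.37 and Tk2, a mitochondrial kinase gene, rose by 0.22, and Rrm2b was not called (log2 fold change -0.12).

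Inflammasome and output genes were scarce in siNTC. All 3 inflammasome genes tested were higher (median 2.83), with Casp1 going from 0.131 ± 0.132 to 1.37 ± 0.136 CPM, Gsdmd from 0.652 ± 0.312 to 4.72 ± 0.387 CPM and Il18 from 1.82 ± 0.384 to 3.08 ± 0.775 CPM (SD over 4 libraries). The adaptor gene Pycard and Il1b were not among the genes of the table. Of the genes induced below STING and NF-κB, all 4 tested were higher (median 7.65). Isg15, a ubiquitin-like modifier, rose from 1.02 ± 0.380 to 261 ± 25.1 CPM, and the chemokine genes Cxcl10 and Ccl5 from 0.313 ± 0.191 to 81.4 ± 5.40 CPM and from 0.105 ± 0.149 to 18.8 ± 1.97 CPM (SD over 4 libraries). Il6 reached 2.13 ± 0.496 CPM from 0.104 ± 0.0852 CPM. Ifnb1, the interferon gene that IRF3 switches on, and Tnf were not among the genes of the table. Casp1, Gsdmd, Cxcl10, Ccl5 and Il6 averaged below 1 CPM in siNTC. They met the table's limit of 1 CPM in at least 4 libraries only through siErk3, so their higher calls were largely fixed in advance. Isg15, at 1.02 ± 0.380 CPM, cannot have exceeded 1 CPM in every siNTC library, so it too was in the table only through siErk3. All 4 output genes tested, and their median of 7.65, thus rest on genes kept by their siErk3 level. Genes that were low in both groups could not appear.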

How the data were processed

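The authors deposited raw counts per gene for 8 libraries and a table of their own edgeR comparison (log2 fold changes and p-values), which was not used. Their processing notes name bcl2fastq, FastQC, Bowtie2, edgeR and the build mm10; the counting program and annotation are not given in the sources used here. Every gene of the table exceeded 1 CPM in at least 4 libraries. Reads of overlapping or near-identical genes, and of both strands, may be mixed.

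The counts were analysed with edgeR 4.0.16 in R 4.3.3: filterByExpr (minimum count 10, minimum total 15), TMM factors and the quasi-likelihood test of siErk3 against siNTC with no covariate, adjusted by Benjamini-Hochberg over the 17972 genes tested, threshold 0.05. The fit was tested on simulated data. Pairwise ratios used counts plus 0.5. Alternatives were DESeq2 1.42.0, limma-voom (limma 3.58.1), RLE, upper-quartile or no factors, no filter, 5 CPM in at least 4 libraries, a replicate block, and leaving out each library. Exons and transcripts came from GENCODE M21 (mm10), promoters from RefSeq (GRCm38.p6). Permutation tests used scipy 1.17.1. Intervals cover counting error only where stated.

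Genes named are the 7 members, Mapk6, of each list at most 4 called higher, 4 called lower and 2 not called by mean CPM, and the 3 genes with the profile nearest to each member (log2 CPM, prior count 2, mean level of 1 CPM or more). Named outside this rule, after their values were seen, were Aim2, Ifi205, Ifi208, Ifi213, Ifi214, Tbk1 and Pparg, and the genes that overlap a member, share its sequence or lie in the PYHIN cluster (Atrip, Gm8093, Ifi203-ps, Gm38050 and Gm18445). The members and lists were chosen with earlier results of these data known. Each of the 12 pairs of libraries within a group differed beyond sampling noise (chi-square 1.97 to 8.30 for each gene on average).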

Additional observations from a re-analysis of the deposited data

Results flagged for a closer look

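In 15 of 182 groups of 4 libraries (the genes named, in siNTC and in siErk3), 1 library stood apart from the other 3 by Dixon's criterion, where chance gives about 1 in 20, or 9.1 groups. Among the members, Trex1 was at 4.54 CPM in siNTC replicate 2, below 6.05 to 6.21 CPM in the others, Mb21d1 at 2.51 CPM in siErk3 replicate 1, above 1.88 to 1.98 CPM, and Samhd1 at 181 CPM in siErk3 replicate 4, below 187 CPM in each of the others. Atrip, whose exons contain those of Trex1, was at 10.9 CPM in the same siNTC replicate 2, below 11.5 to 11.6 CPM in the others. Among the other genes, Ifi207 was at 5.74 CPM in siNTC replicate 3, Ripk3 at 6.77 CPM and Il18 at 2.40 CPM in siNTC replicate 1, and Zdhhc3 at 60.4 CPM and Dlk1 at 55.7 CPM in siNTC replicate 3, each above the others, while in siErk3 Gbp7 was at 164 CPM in replicate 4, above 127 to 132 CPM, and Hmox1 at 1048 CPM in replicate 1, below 1175 to 1189 CPM. Ifi205 and Gm38050 at 0.104 CPM and Gm18445 at 0.209 CPM in siNTC replicate 3, and Ifi214 at 0.105 CPM in siNTC replicate 4, are 1 or 2 counts beside 3 libraries with none.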

How the results depend on the processing

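The 6 calls among the members held under all 16 alternatives, and no member was lower under any. Mb21d1 was called in 1 of 15, without siNTC replicate 2, and leaving out single libraries moved its log2 fold change between 0.38 and 0.98 and the number of members called higher between 6 and 7. It gave no value under the filter of 5 CPM. Other pathway genes higher ranged from 34 to 49 and lower from 11 to 16. With library sizes alone 7 cofactor and 7 trafficking genes were higher in place of 4 and 4, and with upper-quartile factors 2 cofactor and no cGAMP genes were higher in place of 4 and 2, while 4 dNTP genes were lower in place of 2. DESeq2 and leaving out siNTC replicate 4 or siErk3 replicate 3 each gave 2 cofactor genes higher, and leaving out siNTC replicate 3 gave 7 trafficking genes. The strict filter left no inflammasome gene.

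The replicate numbers do not mark a shared culture in the labels, and deviations of same-numbered libraries correlated by -0.0161 to 0.0606, and 1 of the 4 siErk3 libraries correlated best with the siNTC library of its own number, so the libraries were not treated as paired. A replicate block gave 6 members, 42 other pathway genes and 4501 genes in all as higher, and 14 and 4292 as lower. Counts per library lay between 8 and 26 for Mb21d1 and between 11 and 73 for Tmem173, the lowest of the members.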
